A study of Homo sapiens with 8 samples.

Results

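The genes described here are 10 junction genes of epithelial cells: the claudins CLDN1, CLDN2, CLDN3, CLDN4, CLDN7, CLDN12 and CLDN15, the tight junction proteins OCLN (occludin) and TJP1 (ZO-1), and F11R (the adhesion molecule JAM-A). They were picked by gene symbol from the 54261 genes of the count table, with earlier results of these data known, and all 10 were found. Of these, 4 were grouped as barrier claudins (CLDN1, CLDN3, CLDN4 and CLDN7) and 3 as pore claudins (CLDN2, CLDN12 and CLDN15).

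Total RNA of 5 human cell lines was sequenced as 1 library per line and condition, 8 libraries in all. NCM460 and HIEC6, labelled as lines of normal intestinal epithelium, made up the normal group and were untreated. The colorectal carcinoma (CRC) lines DLD1, HCT116 and HCT8 were each sequenced untreated and under hypoxia, for which the labels give neither an oxygen level nor a duration. All lines were grown in the same serum-containing medium, and the labels name no transgene and no agent besides hypoxia. A group is therefore a set of 2 or 3 different lines, and the spread within it is the spread between lines.

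Tight junctions seal the space between neighbouring epithelial cells near their apical side. Claudins are membrane proteins with 4 transmembrane segments that polymerize into strands, and their extracellular loops set what may pass between the cells. CLDN1, CLDN3, CLDN4 and CLDN7 are mostly counted as sealing claudins. CLDN2 forms a channel for small cations and water, CLDN15 forms a cation channel of the intestine, and CLDN12 has been linked to calcium passage. Occludin and JAM-A lie in the same junction, and ZO-1 is the scaffold that ties the strands to actin.

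Total counts lay between 45519306 and 57374239, so that 3 counts, taken as the floor, were worth 0.0523 to 0.0659 CPM, the unit used for levels throughout, in which the counts of each library add up to 1000000. The libraries of both normal lines called for a check. HIEC6 had only 3 of 8 epithelial markers above 1 CPM (KRT8, KRT18 and CDH1), against 6 or 7 in every other library, with EPCAM at 0.176 CPM. The summed epithelial markers were 8019 CPM in HIEC6, of which KRT8 gave 4290 and KRT18 3725, against 4551 to 14028 CPM elsewhere. The summed level of 9 mesenchymal markers in HIEC6 was 1397 CPM, of which VIM gave 1223, against 11.7 to 166 CPM elsewhere. By count, 5 of these 9 exceeded 1 CPM in HIEC6, against 2 to 6 in the other libraries. The library labelled NCM460 correlated with untreated HCT116 at 0.994 across all genes in log2(CPM + 1), more closely than untreated HCT116 correlated with HCT116 under hypoxia, at 0.980. These correlations run across genes, which are no independent replicates, and describe the libraries only. The extraction label names brain tissue. Of 4 neural markers, GFAP reached at most 0.095 CPM and SNAP25 0.899 CPM in any library, while MBP had 10.8 to 118 CPM in all 8. SYT1 had 68.8 CPM in NCM460, 128 in HCT116 and 159 in HCT116 under hypoxia, and at most 1.43 CPM in the other libraries. The summed neural markers ranged from 13.2 CPM (HIEC6) to 277 CPM (HCT116 under hypoxia). The summed level of 8 hypoxia response genes went from 828 to 1658 CPM in DLD1, from 438 to 6307 CPM in HCT116 and from 604 to 3480 CPM in HCT8 under hypoxia.

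The sequences just before the transcription starts of CLDN1, CLDN2, CLDN3, CLDN4 and CLDN7 are shown because these 5 genes differed most between the lines. They come from RefSeq on GRCh38.p14, which had entries for 9 of the 10 genes (none for F11R), and each is the stretch of 250 bases that ends at the base before the start, written 5′ to 3′ on the strand of the gene. Capitals mark matches, on either strand, to the E-box bound by SNAI and ZEB repressors (CACCTG) or to the core of the hypoxia response element (ACGTG or GCGTG).
CLDN1 (chr3:190322447-190322696, minus strand): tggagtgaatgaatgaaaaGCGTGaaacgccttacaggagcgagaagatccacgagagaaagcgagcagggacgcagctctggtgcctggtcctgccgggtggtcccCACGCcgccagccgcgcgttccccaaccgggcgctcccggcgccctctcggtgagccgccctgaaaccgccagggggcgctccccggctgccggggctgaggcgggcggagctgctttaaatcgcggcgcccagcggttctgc
CLDN2 first start (chrX:106899914-106900163, plus strand): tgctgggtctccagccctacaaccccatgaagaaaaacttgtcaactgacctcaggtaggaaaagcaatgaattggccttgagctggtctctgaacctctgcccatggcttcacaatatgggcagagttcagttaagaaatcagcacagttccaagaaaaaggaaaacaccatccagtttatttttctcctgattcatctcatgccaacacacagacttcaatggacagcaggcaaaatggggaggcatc
CLDN2 second start (chrX:106918110-106918359, plus strand): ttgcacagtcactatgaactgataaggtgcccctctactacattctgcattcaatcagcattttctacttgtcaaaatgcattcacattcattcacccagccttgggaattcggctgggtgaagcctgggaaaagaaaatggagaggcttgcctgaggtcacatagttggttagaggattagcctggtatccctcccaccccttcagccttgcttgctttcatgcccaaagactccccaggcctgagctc
CLDN3 (chr7:73770271-73770520, minus strand): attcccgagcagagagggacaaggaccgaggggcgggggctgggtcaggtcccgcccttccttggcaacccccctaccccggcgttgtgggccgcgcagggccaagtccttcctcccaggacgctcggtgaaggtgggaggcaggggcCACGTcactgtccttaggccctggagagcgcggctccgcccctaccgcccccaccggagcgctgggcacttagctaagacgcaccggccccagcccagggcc
CLDN4 (chr7:73830746-73830995, plus strand): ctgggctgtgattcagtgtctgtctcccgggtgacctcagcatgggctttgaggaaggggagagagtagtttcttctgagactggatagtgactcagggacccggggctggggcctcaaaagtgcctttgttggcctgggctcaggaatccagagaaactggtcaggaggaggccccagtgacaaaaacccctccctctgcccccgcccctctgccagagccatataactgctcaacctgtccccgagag
CLDN7 first start (chr17:7263214-7263463, minus strand): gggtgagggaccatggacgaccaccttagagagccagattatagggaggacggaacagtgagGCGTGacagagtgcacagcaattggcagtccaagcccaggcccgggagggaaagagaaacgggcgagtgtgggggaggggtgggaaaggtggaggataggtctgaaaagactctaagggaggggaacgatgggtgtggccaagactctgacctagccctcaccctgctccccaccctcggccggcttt
CLDN7 second start (chr17:7262479-7262728, minus strand): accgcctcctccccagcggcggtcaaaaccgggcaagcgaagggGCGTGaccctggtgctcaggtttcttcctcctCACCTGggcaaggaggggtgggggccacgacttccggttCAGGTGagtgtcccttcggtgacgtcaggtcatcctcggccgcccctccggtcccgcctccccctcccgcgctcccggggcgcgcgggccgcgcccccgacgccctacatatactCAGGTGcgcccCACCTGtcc
The E-box letters were found in 17.5% of the 35116 windows of the same length in the table, and the hypoxia core in 43.2%. The second start of CLDN7 held 4 E-box matches and 1 hypoxia core, and its first start held 1 hypoxia core. CLDN1 held 2 hypoxia cores and CLDN3 held 1, without an E-box match in either. CLDN4 and both starts of CLDN2 held neither, and the letters TTTATG of a CDX site, present in 9.64% of all windows on either strand, were in no window of any member. A match is only a run of letters in this window, and its absence says nothing about binding elsewhere.

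CLDN4, CLDN7 and CLDN3 had their lowest level in HIEC6, where CLDN4 and CLDN7 were still above the floor and CLDN3 had 0 counts. In bulk RNA, fewer cells with a transcript and less of it per cell cannot be told apart. CLDN4, a claudin of tight epithelia, had 425 CPM in NCM460, 261 in DLD1, 238 in HCT116 and 215 in HCT8 among the untreated lines, and 262, 394 and 223 CPM in DLD1, HCT116 and HCT8 under hypoxia. HIEC6 had 1.52 CPM (86 counts). CLDN7, a basolateral as well as junctional claudin, had 194 CPM in NCM460, 241 in DLD1, 152 in HCT116 and 213 in HCT8, then 155, 111 and 164 CPM under hypoxia in the same order of CRC lines, against 3.47 CPM in HIEC6. Both were thus at a similar height in 7 libraries and near the bottom of the range in 1. CLDN3 had 21.3 CPM in NCM460, 12.2 in DLD1, 19.5 in HCT116 and 38.1 in HCT8, then 20.9, 18.8 and 62.9 CPM under hypoxia. HIEC6 had 0 counts of CLDN3, and HCT8 stood above the other lines in both conditions.

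CLDN1 followed another order. HIEC6, almost without the other barrier claudins, had the highest CLDN1 of all libraries at 19.4 CPM. NCM460 had 0.183 CPM (9 counts), DLD1 7.69, HCT116 0.421 and HCT8 2.70 CPM, and under hypoxia DLD1 had 14.6, HCT116 0.253 and HCT8 2.13 CPM. The order DLD1, HCT8, HCT116 was the same in both conditions.

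CLDN2, the cation channel, spanned the widest range. It was at 28.0 CPM in DLD1, 12.8 in HCT8 and 1.55 in HCT116, and at 42.2, 1.78 and 0.235 CPM in the same lines under hypoxia. NCM460 had 0.244 CPM (12 counts) and HIEC6 had 0 counts. Across the 6 CRC libraries the highest CLDN2 level was 180.0 times the lowest. CLDN1 spanned 57.9 times and CLDN3 spanned 5.17 times.

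The other pore claudins varied little. CLDN12 had 42.2 CPM in NCM460 and 20.7 in HIEC6, and the CRC lines DLD1, HCT116 and HCT8 had 34.8, 38.2 and 35.8 CPM untreated and 33.3, 48.0 and 49.2 CPM under hypoxia. CLDN15 had 12.0, 3.60, 6.99, 8.23 and 9.36 CPM in the same order of untreated lines and 6.33, 8.36 and 7.54 CPM under hypoxia. Their highest level was 1.48 times their lowest over the 6 CRC libraries for each. Both stayed well above the floor in HIEC6.

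OCLN, TJP1 and F11R were at their lowest in HIEC6. F11R, which binds its like on the neighbouring cell, had 219 CPM in NCM460 and 50.4 in HIEC6, then 199 in DLD1, 179.7 in HCT116 and 242 in HCT8, and 201, 200.02 and 201 CPM under hypoxia. OCLN had 6.36, 0.388, 5.80, 3.22 and 11.9 CPM in the same order and 4.44, 3.20 and 7.34 CPM under hypoxia. TJP1 had 13.7, 1.92, 10.6, 6.74 and 10.1 CPM, and 9.03, 5.78 and 6.66 CPM under hypoxia. F11R stayed within 1.34 times over the CRC libraries and TJP1 within 1.84 times. OCLN has a partial copy (OCLNP1) that the table does not list, CLDN7 overlaps ELP5, TJP1 overlaps HMGN2P5, CLDN1 overlaps CLDN16 and CLDN2 overlaps RIPPLY1, and since the strand used in counting is not stated, reads of these pairs may be divided in ways the counts do not show.

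**Figure D1:**
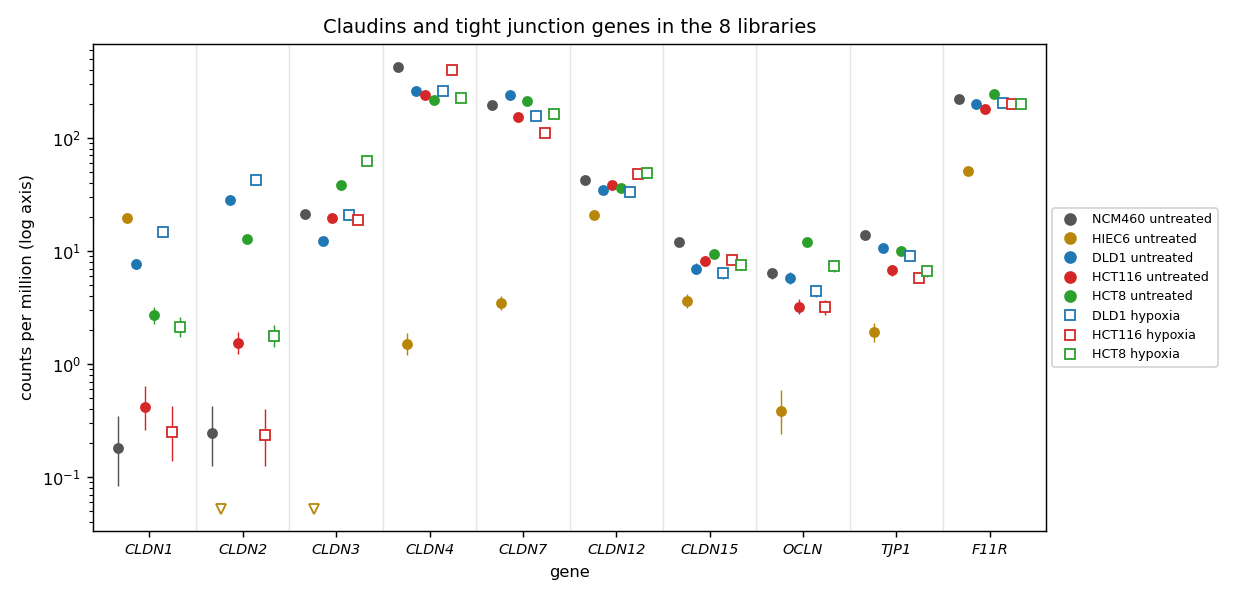
Levels of the 10 genes in CPM (log axis) in each of the 8 libraries, with exact 95% Poisson intervals that cover counting error only. Filled circles are untreated lines, open squares hypoxia, and an open triangle at the floor of 3 counts stands for a count of 0, as for CLDN2 and CLDN3 in HIEC6. CLDN12, CLDN15 and F11R lie close together over the CRC libraries, while CLDN1 and CLDN2 spread widely.

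Levels of different genes were compared as CPM per kb of the Ensembl canonical transcript. CLDN7 (157 CPM per kb) and CLDN4 (154) led in untreated DLD1, and CLDN7 (138) stood before CLDN4 (127) in HCT8. In untreated HCT116 and NCM460 CLDN4 came first, with 141 and 251 CPM per kb against 98.8 and 126 of CLDN7. Under hypoxia CLDN4 came first in all 3 lines, at 155, 233 and 132 CPM per kb against 100.4, 71.8 and 106 of CLDN7. The exchange of places in DLD1 and HCT8 was not tested. In HIEC6 the order began with F11R (10.9), CLDN12 (5.85) and CLDN1 (5.64).

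The question whether the CRC lines differ from each other was tested over their 6 libraries in a model with line and treatment, so that each line had 2 libraries. These 2 were no replicate cultures of 1 condition, and a hypoxia difference that varied by line counted as error. CLDN1 and CLDN2 were higher in DLD1 than in HCT116, with log2 fold changes of 4.82 (SE 0.55, adjusted p = 0.000383, edgeR) and 5.79 (SE 0.87, adjusted p = 0.00167). These were 2 of the 10 members, in a comparison that called 32% of 21045 genes. HCT8 against HCT116 called 3 of 10 members, where 27% of all genes were called. CLDN1 was higher in HCT8 by a log2 fold change of 2.49 (SE 0.51), CLDN2 by 2.64 (SE 0.77) and CLDN3 by 0.98 (SE 0.25). DLD1 against HCT8 also called 3 of 10, with 15.7% of all genes called. CLDN1 (2.33, SE 0.48) and CLDN2 (3.14, SE 0.79) were higher in DLD1, and CLDN3 was lower there, at -1.46 (SE 0.25, adjusted p = 0.00667). The value for CLDN2 averages unlike conditions. DLD1 and HCT8 had 28.0 and 12.8 CPM of it untreated, and 42.2 and 1.78 CPM under hypoxia. CLDN4, CLDN7, CLDN12, CLDN15, OCLN, TJP1 and F11R passed the threshold in none of the 3 comparisons, with log2 fold changes from -0.88 (CLDN4, HCT8 against HCT116, adjusted p = 0.057) to 1.16 (OCLN, HCT8 against HCT116, adjusted p = 0.0632). DESeq2 also called these last changes of CLDN4 and OCLN. With 10 members, 2 or 3 called is not far from the share of all genes called against HCT116.

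HIEC6 was set against the mean of the 3 CRC lines in a fit over all 8 libraries, chosen after the data were seen, in which the lone HIEC6 library is assumed to vary as the CRC lines do. CLDN4 was lower by a log2 fold change of -7.02 (SE 0.52, adjusted p = 5.22e-05), CLDN7 by -5.55 (SE 0.36, adjusted p = 3e-05), OCLN by -3.68 (SE 0.61, adjusted p = 0.00331), TJP1 by -1.94 (SE 0.44) and F11R by -1.74 (SE 0.31). CLDN2 and CLDN3 were also called lower, and since HIEC6 had 0 counts of both, their fitted fold depends on the prior count. Against 3 counts per library as the floor, untreated CRC lines were at least 29.3-fold higher than HIEC6 in CLDN2 and at least 230.3-fold higher in CLDN3, taking the line with the lowest level. CLDN1 was the only member that was higher in HIEC6, at 3.53 (SE 0.45, adjusted p = 0.000864). The mean behind that value joins lines of very unlike CLDN1 level. HIEC6 had 2.53 times the CLDN1 level of DLD1, the highest of the untreated CRC lines. CLDN12 (-0.52, adjusted p = 0.249) and CLDN15 (-0.89, adjusted p = 0.153) did not pass. In all, 7 of 10 members were called lower and 1 higher, where 12% of all genes were called lower and 13.6% higher, and the median of all genes was -0.14. The mesenchymal marker sum given earlier moved with this difference, and its part in the result was not tested.

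In the same fit NCM460 was set against HCT116. Of the 10 members, 0 differed between these lines at an adjusted p under 0.05, in a comparison that called 14 of 21647 genes (0.0647%), and 0 had an unadjusted p under 0.05. TJP1 (log2 fold change 0.85, SE 0.43), OCLN (0.68, SE 0.52) and CLDN4 (0.46, SE 0.38) had the largest positive values and CLDN2 (-2.33, SE 1.16) the largest negative one. A p that misses the threshold with 1 NCM460 library does not show that the lines are alike. By counting error alone, the untreated NCM460 to HCT116 ratio of CPM excluded 1 in 10 of 10 members, from 0.157 (CLDN2, 95% interval 0.0781 to 0.290) to 2.04 (TJP1, 1.79 to 2.32), and 5 of 10 lay within 1.5 times of each other. Neither share was counted over all genes, and such intervals leave out the spread between cultures. Both counts thus describe this pair of libraries and set the members apart from no other genes. NCM460 against the mean of the CRC lines called 2 of 10 members, CLDN1 (-3.38, SE 0.69, adjusted p = 0.0194) and CLDN2 (-5.15, SE 1.20, adjusted p = 0.0328), both lower, where 9.02% of all genes were called. HCT116 was itself the lowest of the CRC lines in both, at 0.421 CPM of CLDN1 and 1.55 CPM of CLDN2 beside 0.183 and 0.244 CPM in NCM460.

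The comparison of the CRC lines with the normal lines joined these unlike libraries. It called 0 of 10 members and 0% of 19964 genes with edgeR, with 542 genes at an unadjusted p under 0.05 and 1 such member, CLDN2. CLDN4 averaged 238 ± 23.0 CPM over the 3 CRC lines and 213 ± 299 CPM over the 2 normal lines (± SD), and in the latter the SD exceeded the mean. CLDN7 was 202 ± 45.6 CPM against 98.8 ± 135 CPM, and CLDN1 3.60 ± 3.72 CPM against 9.81 ± 13.6 CPM. The log2 fold change of CLDN4 was 0.06 with both normal lines, 7.04 against HIEC6 alone and -0.93 against NCM460 alone. For CLDN1 these values were -1.71, -2.70 and 4.18. DESeq2 called CLDN2 higher in the CRC lines (6.74, adjusted p = 0.0179) and 143 genes in all.

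**Figure D2:**
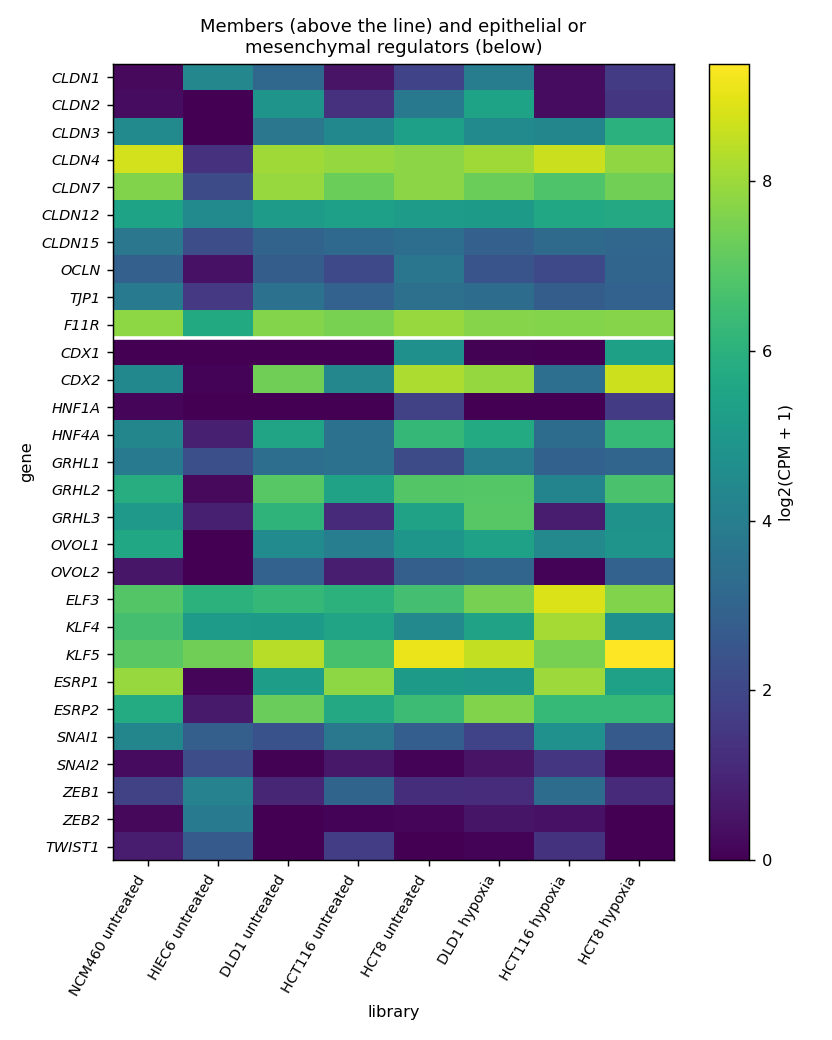
log2(CPM + 1) of the 10 members, above the white line, and of 19 epithelial or mesenchymal regulators, below it, in the 8 libraries. HIEC6 is dark for CLDN2, CLDN3, GRHL2, OVOL1 and ESRP1 and has the highest ZEB1 and ZEB2. NCM460 and HCT116 share most of their colours.

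Under hypoxia the members' differences varied in sign and size between the lines. Over the 3 lines, 0 of 10 members passed edgeR's test without a block, where 0% of 21045 genes were called and 607 had an unadjusted p under 0.05. With the line as a block, which pairs each line's libraries, again 0 of 10 members passed, and 0.95% of genes were called. No member had an unadjusted p under 0.05 without the block, and 1 had one with it. That was CLDN3, with a paired log2 fold change of 0.62 (SE 0.20, adjusted p = 0.169). DESeq2 with the block gave CLDN3 an adjusted p = 0.0348. Treatment and sequencing run cannot be told apart here, since the untreated and the hypoxia libraries of the CRC lines share no run label. The hypoxia libraries of DLD1 and HCT116, but not that of HCT8, carry a second run label, which NCM460 has too.

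Within a line, values of 1 library per condition were compared with an exact interval for counting error, which does not cover the spread between cultures. CLDN3 was 1.72 times its untreated level in DLD1 (95% interval 1.56 to 1.89) and 1.65 times in HCT8 (1.56 to 1.75), and 0.961 times in HCT116 (0.880 to 1.05). CLDN2 was 1.51 times its untreated level in DLD1 (1.41 to 1.61), 0.139 times in HCT8 (0.109 to 0.175) and 0.151 times in HCT116 (0.0773 to 0.274). Thus CLDN2 was higher under hypoxia in the line where it was already highest and lower in the remaining lines. With the block its log2 fold change was -1.43 (SE 0.66, adjusted p = 0.297), and the difference between lines was not tested for want of replicate libraries.

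CLDN7 was at 0.641, 0.727 and 0.768 times its untreated level in DLD1, HCT116 and HCT8, all 3 intervals below 1, and its paired log2 fold change was -0.36 (SE 0.18, adjusted p = 0.33). OCLN and TJP1 were also at ratios under 1 in all 3 lines, although in HCT116 the intervals of OCLN (0.8 to 1.23) and of TJP1 (its upper end at 1.0004) held 1. They were lowest in HCT8 (0.616 and 0.661 times), with paired adjusted p = 0.746 and 0.722. CLDN4 was at 1.65 times in HCT116 (1.62 to 1.69), and at 1.003 times in DLD1, where the interval held 1 (0.979 to 1.03), and 1.04 times in HCT8. CLDN1 was 1.90 times its untreated level in DLD1 (1.68 to 2.15), while in HCT8 (0.604 to 1.03) and HCT116 (0.284 to 1.23) the interval held 1. By the sign of the CPM ratio alone, 1 of 10 members was above its untreated level in every line (CLDN4), 3 of 10 were below it (CLDN7, OCLN and TJP1) and 6 of 10 had mixed signs. The same tally was not made over all genes, so it does not set the members apart from other genes. It also depended on the scaling. TMM factors, tried after the data were seen, shifted every log2 ratio in HCT116 by 0.36, and then 2 of 10 were above in every line (CLDN3 and CLDN4), 1 below (CLDN7) and 7 mixed. Under that scaling OCLN and TJP1 were above 0 in HCT116, at 0.35 and 0.13.

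**Figure D3:**
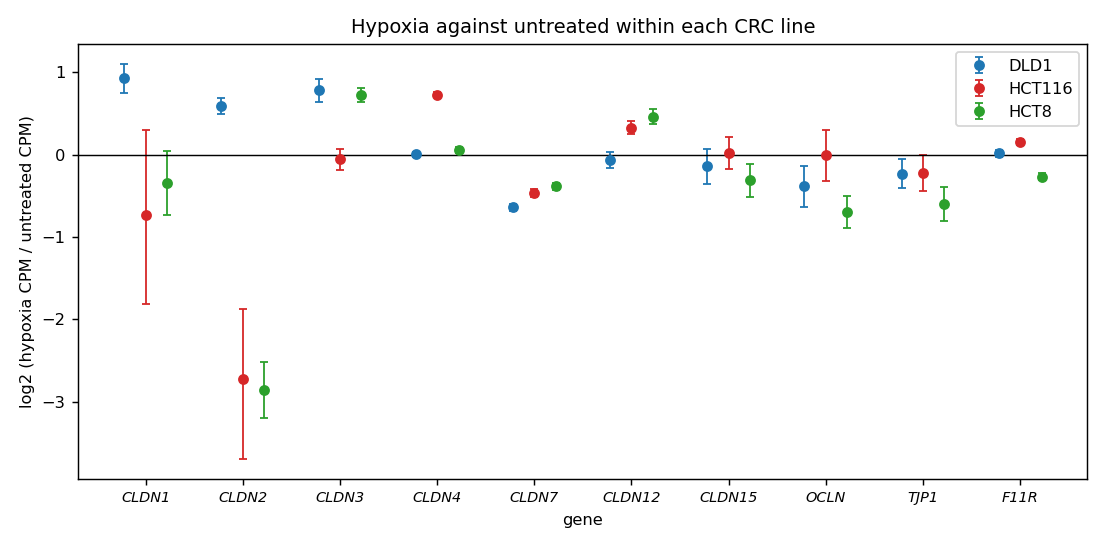
log2 ratio of CPM under hypoxia to CPM untreated for the 10 members in DLD1, HCT116 and HCT8, with exact 95% intervals for counting error. CLDN2 lies above 0 in DLD1 and at -2.72 and -2.85 in HCT116 and HCT8, and CLDN7 lies below 0 in all 3 lines, as it does with TMM scaling, while OCLN and TJP1 in HCT116 lie above 0 with that scaling.

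Summed per kb, barrier claudins exceeded pore claudins in every library but HIEC6. In NCM460 the barrier sum was 393 CPM per kb and the pore sum 21.8. The CRC lines DLD1, HCT116 and HCT8 had barrier sums of 323, 255 and 296 and pore sums of 25.0, 18.1 and 22.1. In HIEC6 both sums were 8.79, and the pore sum was made up of CLDN12 at 5.85 and CLDN15 at 2.94. The log2 ratio was 3.74 ± 0.06 in the untreated CRC lines (SD, n = 3), with 3.68, 3.81 and 3.74 in DLD1, HCT116 and HCT8. NCM460 stood at 4.16 and HIEC6 at a ratio near equality, which rested on CLDN12. Under hypoxia DLD1 had 3.25, HCT116 3.95 and HCT8 3.79, a mean of 3.67 ± 0.37 (SD, n = 3). DLD1 was thus 0.43 below its untreated value, with HCT116 0.14 and HCT8 0.06 above theirs, and no test was made of these single values. The order of the 2 means depended on single claudins, since without CLDN12 they were 4.71 untreated and 4.91 under hypoxia, and without CLDN7 2.89 and 3.11.

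What made up the sums differed more than the sums. CLDN4 and CLDN7 gave 89.6% to 96.3% of the barrier sum in the untreated CRC lines and 35.8% in HIEC6, where CLDN1 gave 64.2%. CLDN2 gave 37.8% of the pore sum in DLD1, 19.6% in HCT8 and 2.90% in HCT116, and under hypoxia 49.4%, 2.91% and 0.387%. In NCM460 it gave 0.377%. The near-equal ratios of the 3 untreated CRC lines thus went with unlike shares of CLDN2.

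**Figure D4:**
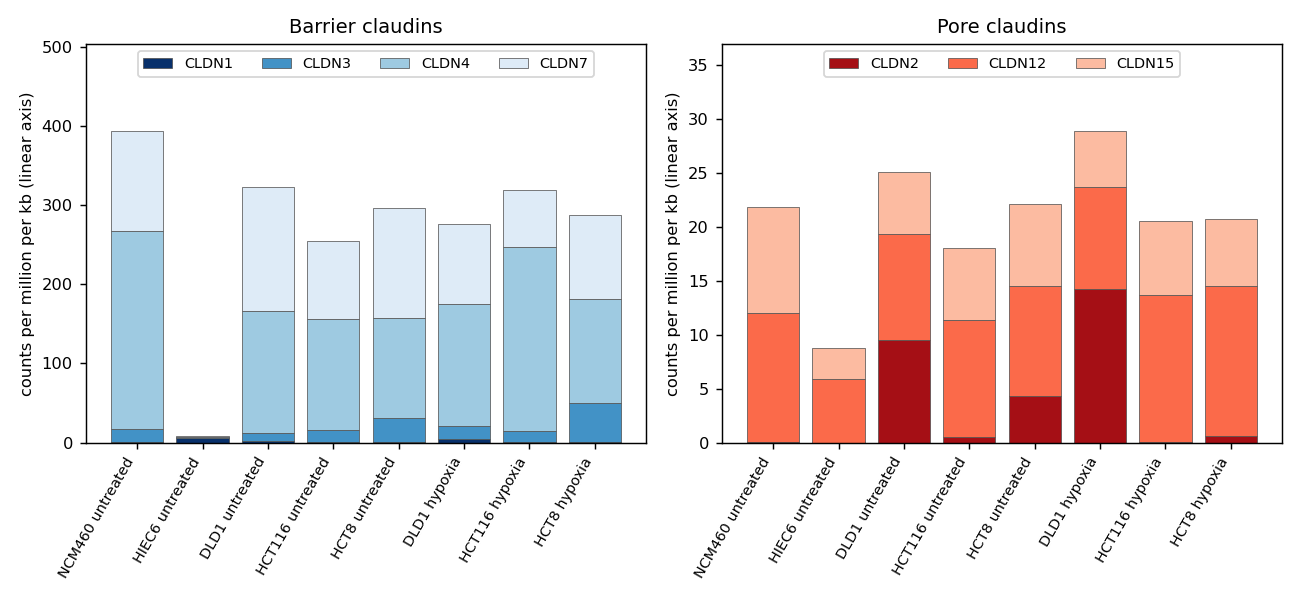
Summed CPM per kb of the barrier claudins (left) and the pore claudins (right) in the 8 libraries, stacked by gene on linear axes that start at 0 and differ between the panels. The barrier bar of HIEC6 is 8.79 against 255 to 393 in the other untreated lines, and the CLDN2 part of the pore bar is largest in DLD1.

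Among 17 other claudins, only CLDN6, CLDN9 and CLDN23 exceeded 1 CPM in any library, and 6 had 0 counts in all 8. CLDN6 reached 2.24 and 3.03 CPM in HCT8, untreated and under hypoxia, and CLDN9 3.15 and 3.38 CPM there and 2.27 and 5.25 CPM in DLD1. CLDN9 was higher in DLD1 (log2 fold change 3.77, adjusted p = 0.00262) and in HCT8 (3.60, adjusted p = 0.00411) than in HCT116. CLDN23 was also called higher in both (1.23 and 1.62), and CLDN6 in HCT8 alone (3.31). Of 5 tested, 2 were thus called in DLD1 and 3 in HCT8, where 32% and 27% of all genes were. In HIEC6 against the CRC lines, 0 of the 5 tested were called, where 12% of all genes were called lower and 13.6% higher.

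Of 32 other tight junction genes, 30 were tested. In HIEC6 against the CRC lines, 15 were called lower and 4 higher, where 12% and 13.6% of all genes were. The median log2 fold change of the 30 was -1.99, beside -0.14 for all genes. It was the same with the 6 genes of 3 counts or fewer in HIEC6 set at the floor. Tricellulin (MARVELD2) had 0.0529 CPM in HIEC6 and 1.99 to 4.77 CPM in the untreated CRC lines. The tricellular proteins LSR (-3.23, adjusted p = 0.000279) and ILDR1 (-6.58, adjusted p = 0.000184), the scaffold cingulin (CGN, -3.18, adjusted p = 0.000647) and the polarity protein CRB3 (-5.51, adjusted p = 5.22e-05) were among the lower. AMOTL1, PRKCI, MPP5 and AMOTL2 were the higher. AMOTL1 was on in HCT116 (119 CPM) and NCM460 (114 CPM) and near the floor in DLD1 (0.117 CPM) and HCT8 (0.0190 CPM), so that its mean over the CRC lines describes no line. Under hypoxia with the block, 1 of 30 was called, TJP3 (ZO-3), at a log2 fold change of 1.16 (SE 0.17, adjusted p = 0.0295), where 0.95% of all genes were called. The count of all genes called in that fit fell from 200 to 6 without HCT8. TJP3 went from 45.01 to 89.1 CPM in DLD1, from 62.2 to 125 in HCT116 and from 72.9 to 156 in HCT8.

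Of the adherens junction genes, 11 were tested, and 4 were called lower and 2 higher in HIEC6, where 12% and 13.6% of all genes were, with a median log2 fold change of -0.53 beside -0.14 for all genes. E-cadherin (CDH1), the epithelial cadherin, had 3.03 CPM in HIEC6, 147 in NCM460, 126 in HCT116, 1071 in DLD1 and 972 in HCT8. It was higher in DLD1 than in HCT116 (2.51, SE 0.29), and the claudins CLDN4 and CLDN7 were not called in that comparison. The list as a whole was mixed there. Of the 11 genes, 3 were called higher in DLD1 and 4 lower, where 32% of all genes were called. The lower ones included CDH3 (-1.86), NECTIN1 (-1.95) and NECTIN3 (-4.41).

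Of 19 regulators, 8 were called lower and 4 higher in HIEC6 than in the CRC lines, where 12% and 13.6% of all genes were. The median log2 fold change of the 19 was -0.96, beside -0.14 for all genes. With the 5 genes of 3 counts or fewer in HIEC6 set at the floor it was -1.86. Lower were factors of epithelial identity, including GRHL2 (-8.44, adjusted p = 2.47e-05), HNF4A (-5.08, adjusted p = 5.22e-05) and the splicing factors ESRP1 (-9.20) and ESRP2 (-6.93). OVOL1 and CDX2 were lower too, with 1 and 3 counts in HIEC6. Higher were SNAI2, ZEB1, ZEB2 and TWIST1, repressors of epithelial genes, at 3.69, 16.8, 13.2 and 5.31 CPM in HIEC6. The untreated CRC lines had at most 0.536, 7.06, 0.095 and 2.28 CPM of these. From the same list GRHL1 (-0.59), ELF3 (-0.045), KLF4 (0.35), KLF5 (-0.43) and the repressor SNAI1 (0.10) were not called. Among the CRC lines, CDX2, an intestinal factor, was at 163 CPM in DLD1, 295 in HCT8 and 19.3 in HCT116, and 13 and 14 of the 19 regulators differed from HCT116 in DLD1 and in HCT8, where 32% and 27% of all genes did. Of those called, 7 were higher and 6 lower in DLD1, and 8 were higher and 6 lower in HCT8. ZEB1 was lower in both than in HCT116, where it had 7.06 CPM. So were ESRP1 (-3.04 in DLD1 and -3.07 in HCT8) and KLF4 (-2.01 and -2.88). Between NCM460 and HCT116, GRHL3 was the 1 regulator called, at 32.2 and 1.19 CPM. Whether these levels bear on the claudins was not tested.

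By a rule of highest Pearson correlation of log2(CPM + 1) over the 8 libraries among 14977 genes with a mean of at least 1 CPM, the genes most like CLDN4 were TRIM4 (0.994), CYFIP2 (0.992) and CUL7 (0.990). TRIM4 had 0.0176 CPM in HIEC6 and 47.2 to 65.7 CPM in the other untreated lines. CYFIP2 and CUL7 were lowest in HIEC6 too, at 0.406 and 26.6 CPM, so that this 1 library weighs heavily in the correlations with CLDN4. The genes most like CLDN2 were NOX1 (0.979), UBE4B (0.971) and SPAG1 (0.969), and NOX1 had 3.53 CPM in DLD1 and 6.78 there under hypoxia. Those most like OCLN were SNORD17 (0.992), DUSP18 (0.978) and SMIM19 (0.972). The 8 points include pairs of libraries from the same line, and the correlations are descriptions.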

How the data were processed

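Total RNA libraries of 5 cell lines (8 libraries) were analysed from 1 table of raw counts per gene, which the authors deposited without normalization. All 8 columns were used and 0 left out. The submitters' processing notes name HISAT2 2.0.4 and GRCh38, while the paper's methods name GRCh37.p13, and the table holds no coordinates, so only the RefSeq promoter windows carry a build. The counter, its strand setting and its treatment of reads with several matches are not given in the sources used here. Groups came from the sample labels.

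Counts were tested with edgeR 4.0.16 (quasi-likelihood, TMM, Benjamini-Hochberg adjustment, threshold 0.05), run in R 4.3.3. A gene entered a fit when 2 or more of its libraries held 10 counts or more. The procedure was tested on simulated data first. DESeq2 1.42.0, RLE size factors, other filters, each library left out and the line as a replicate block were alternatives. The block pairs the hypoxia comparison, since a replicate number is a cell line: deviations from the group means correlated at 0.836, 0.857 and 0.82 within lines and from -0.611 to -0.0599 between lines. The line contrasts with NCM460 and HIEC6 were chosen after the data were seen. The members and lists were chosen with earlier results of these data known. Named genes were the 10 members, genes of the fixed lists and, for CLDN4, CLDN2 and OCLN, the 3 most alike. Lengths are those of GENCODE 44 canonical transcripts lifted to GRCh37. With 1 library per line, p-values measure only the spread between these samples. Total counts of 45519306 to 57374239 set the floor of 3 counts, and intervals and floors cover counting error only.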

Additional observations from a re-analysis of the deposited data

How the results depend on the processing

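In the hypoxia comparison 0 genes were called by edgeR without a block. DESeq2 called 55, the replicate block 200, the block with RLE size factors 263 and the block with DESeq2 1666. With the block and a line left out, 292 were called without DLD1, 738 without HCT116 and 6 without HCT8. Of the members, 1 (CLDN3) was called with the block and DESeq2, and 1 (CLDN3) with the block and without HCT116. The log2 fold change of CLDN2 was 0.13 without a block and -1.43 with it, -1.53 with DESeq2 added, -1.40 with RLE, and -2.62, -0.97 and -0.57 with the block and without DLD1, HCT116 and HCT8. For CLDN1 it was -0.35 with the block and without DLD1. CLDN15 had -0.011 with the block and -0.22 with the block and without HCT116, where F11R had -0.12. With column totals alone CLDN15 had -0.15 and F11R -0.043. Leaving out each library in turn gave ranges of -3.83 to 1.19 for CLDN2, -1.63 to 2.001 for CLDN1, -0.28 to 0.17 for CLDN15, 0.051 (without HCT8 under hypoxia) to 1.10 (without untreated HCT8) for CLDN3, 0.13 to 0.61 for CLDN12, -0.68 to 0.18 for OCLN, -0.015 to 0.76 for CLDN4 and -0.073 to 0.23 for F11R. These leave-out fits had no block, so the line of the library left out stood in 1 condition only. Differences between lines thus entered their fold changes along with hypoxia. The cause of the differences between settings was not tested.

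Against the normal lines, DESeq2 called 143 genes and 1 member (CLDN2) where edgeR called 0. With column totals alone the median of all genes moved from -0.0048 to 0.1731 and CLDN15 from -0.08 to 0.070. The replicate block, which there joins different lines, gave CLDN15 0.071. Leaving out each library in turn gave -3.003 to 4.18 for CLDN1, -0.0068 to 13.18 for CLDN3, -0.93 to 7.04 for CLDN4, -0.048 to 5.59 for CLDN7, -0.32 to 0.55 for CLDN12, -0.66 to 0.92 for CLDN15, -0.0092 to 3.86 for OCLN, -0.70 to 1.98 for TJP1 and -0.20 to 1.76 for F11R, and the normal line left out set the ends of these ranges except the lower end of CLDN1.

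Between the CRC lines, DESeq2 called 5 members in HCT8 against HCT116 in place of 3, and 6634 of 21045 genes in place of 5677. With 10 counts required in every library, fewer genes were tested, and 4483 were called in DLD1 against HCT116 and 3584 in HCT8 against HCT116. TJP1 had -0.0096 in HCT8 against HCT116 with RLE and -0.0090 with DESeq2, and F11R -0.021 in DLD1 against HCT8 with the stricter filter. That filter left 5 members called in HIEC6 against the CRC lines, since CLDN1, CLDN2 and CLDN3 were no longer tested, among 3820 of 13544 genes called. In NCM460 against the CRC lines it left 0 members and 670 genes. For NCM460 against HCT116 it called 0 genes and DESeq2 133, and CLDN12 was 0.00038 with either RLE or DESeq2. The barrier to pore ratio of the untreated CRC lines and of the lines under hypoxia was 3.004 and 2.87 without division by length, 4.71 and 4.91 without CLDN12 and 2.89 and 3.11 without CLDN7. Other pseudocounts moved it by less than 1 SD. TMM scaling did so too, but it divides both sums of a library by the same factor. That factor cancels from the ratio except through the pseudocount, so this setting could not check the scaling.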
